A study of Arabidopsis thaliana with 4 samples.

Results

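DNA replication and S-phase genes were followed in shoot apices of Arabidopsis thaliana, in plants labelled clv3 and in plants labelled mp clv3, which also carry a mutation in MP. The group was set by role and gene identifier, with 39 genes of the MCM helicase, the origin recognition complex, origin licensing, the DNA polymerases and their clamp, ribonucleotide reductase, chromatin assembly factor 1 and the E2F, DP and RBR1 regulators. Of these, 38 have a row among the 27322 genes used, and the levels of E2FB (AT5G22220) were not analysed here. Both groups were 6-week-old plants kept at 22 °C under a 16 h light and 8 h dark cycle, and inflorescence shoot apices were taken without the older flowers, per the labels' protocols. Both genotypes carry a clv3 mutation by their labels, and the growth text names the alleles mp319 and clv3-7 but, for the other plants, names Col-0 in place of clv3. CLV3 encodes a peptide that limits the stem cell pool of the shoot apex, and MP (MONOPTEROS) encodes an auxin response factor needed for flower initiation. Of the 2 libraries listed for each genotype the table keeps no separate values: each genotype has 1 column of reads and 1 of RPKM, the reads scaled to the length of the gene model and the total of the column. Differences between plants of a genotype could therefore not be measured, and every interval below covers read counting only.

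DNA replication starts at origins, where the origin recognition complex with CDC6 and CDT1 loads the MCM helicase onto DNA before S phase. CDC45 and other factors then switch the helicase on, polymerases copy the strands behind it while tethered to the ring-shaped clamp PCNA, ribonucleotide reductase supplies the deoxyribonucleotides, and chromatin assembly factor 1 places histones on the new DNA. E2F transcription factors bound to a DP partner drive many of these genes, and RBR1, the plant retinoblastoma protein, holds them in check. In the shoot apex such genes are active where cells divide, in the meristem and in young organ primordia.

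E2F proteins bind a short site with the consensus TTTCCCGC and its variants TTTGGCGC, TTTGCCGC and TTTCGCGC. These 8-letter spellings were searched on both strands in the 300 bases from 250 before to 50 after the annotated gene start, in the RefSeq annotation and sequence of TAIR10.1. Of the 39 genes, 16 (41.0%) had at least 1 match, beside 483 of 27443 protein-coding genes (1.76%). By role, the matches fell in 5 of 8 MCM helicase genes, 4 of 7 origin recognition genes, 1 of 5 licensing genes, 2 of 8 polymerase and clamp genes, 1 of 3 ribonucleotide reductase genes, both chromatin assembly genes and 1 of 6 regulators. The 8 stretches below lie before the gene start and are a selection from the 13 genes with a match there. They are written in the direction of the gene, with each match to the listed spellings on either strand in capitals.
MCM2, chr1:16970154-16970213, plus strand: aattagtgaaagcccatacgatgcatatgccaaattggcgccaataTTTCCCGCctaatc
MCM4, chr2:7130730-7130789, minus strand: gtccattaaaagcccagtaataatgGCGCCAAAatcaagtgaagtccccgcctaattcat
MCM5, chr2:3527501-3527560, minus strand: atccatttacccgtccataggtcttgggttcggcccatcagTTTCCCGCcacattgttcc
MCM6, chr5:18010670-18010729, minus strand: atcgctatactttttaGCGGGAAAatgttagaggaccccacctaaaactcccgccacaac
ORC1A, chr4:8422113-8422172, plus strand: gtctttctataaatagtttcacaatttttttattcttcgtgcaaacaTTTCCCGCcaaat
CDC6B, chr1:2233018-2233077, minus strand: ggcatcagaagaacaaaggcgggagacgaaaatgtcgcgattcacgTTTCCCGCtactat
POLA1, chr5:26776867-26776926, plus strand: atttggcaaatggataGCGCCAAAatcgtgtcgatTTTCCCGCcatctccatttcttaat
RBR1, chr3:3919392-3919451, minus strand: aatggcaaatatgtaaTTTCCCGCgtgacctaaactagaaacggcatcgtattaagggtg
In 7 of these 8 stretches the spelling TTTCCCGC or its reverse complement GCGGGAAA occurs, and POLA1 holds it together with GCGCCAAA, the reverse complement of TTTGGCGC. Of the genes not shown, ORC2, ORC3 and FAS1 also had TTTCCCGC on either strand. MCM3 matched TTTGGCGC alone and FAS2 TTTCGCGC alone. A match is a description of the letters and not a tested binding site. For TSO2, PCNA1, PCNA2, MCM7 and CDC45, no listed spelling was found in this window.

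Most replication genes were lower in mp clv3, by a modest amount. In the authors' deposited table, 35 of 38 had a false discovery rate (FDR) under 0.05 and were lower in mp clv3 (92.1%), beside 46.3% of all genes. E2FC alone, 1 of 38 (2.63%), was higher at that FDR, beside 26.4% of all genes, and RFC1 (FDR 0.128) and RBR1 (FDR 0.7599) did not pass it in the authors' deposited table. The highest FDR among the 36 that passed was 0.00904, that of DPA, in the authors' deposited table. The median log2 ratio of mp clv3 over clv3 was -0.48 over the 38 genes, a 1.39-fold lower level, and -0.11 over all genes. The size of the difference stood out less than its direction. By the column totals, 14 of 38 genes (36.8%) were at least 1.5-fold lower, beside 30.3% of all genes. None was 1.5-fold higher, beside 15.0% of all genes. TSO2 and CDC6B were at least 2-fold lower, 2 of 38 (5.26%) beside 22.2% of all genes, and none was 2-fold higher, beside 10.6%. Of genes averaging at least 100 reads, as all 38 do, 13.7% were at least 2-fold lower. From a mean of 1000 reads it was 1 of 31 replication genes (3.23%), beside 7.82% of all such genes. Among genes whose mean over the columns reached 1000 reads, 28 of 31 replication genes were lower by FDR in the authors' deposited table, beside 51.7% of all such genes, and 9 of 31 were at least 1.5-fold lower, beside 17.3%. In bulk tissue of this kind, fewer dividing cells and less RNA per dividing cell cannot be told apart. Among markers of tissues, all 11 tapetum and pollen markers were lower in the authors' deposited table. Their summed level was 841 RPKM in clv3 against 13.9 RPKM in mp clv3, and MS2, A7 and DYT1 had 0 reads in mp clv3. Of 8 meiosis markers, 7 were lower there, with a summed level of 36.8 RPKM in clv3 against 14.4 RPKM in mp clv3. Of 6 shoot meristem markers, 4 were higher and 2 lower there, with a summed level of 239 RPKM in clv3 against 345 RPKM in mp clv3. STM alone stood at 98.8 and 217 RPKM, so the higher sum does not stand for all 6 markers. The part of these tissues in the lower replication genes was not tested.

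Direction depends in part on how the columns are scaled. TMM factors from edgeR, which set the bulk of genes to no change, moved every log2 ratio up by 0.15, and with them the median of the 38 genes was -0.33 and that of all genes 0.04. The 95% counting interval then lay below no change for 28 of 38 genes (73.7%), beside 33.5% of all genes, and above it for 3 (E2FC, RFC1 and RBR1), beside 31.8%. At least 1.5-fold lower were then 6 of 38 genes (15.8%), a smaller share than the 26.6% of all genes. From a mean of 1000 reads it was 3 of 31 (9.68%), beside 12.7%. ORC3, POL2A and POLD1, lower by FDR in the authors' deposited table, came out at log2 ratios of 0.0051, 0.055 and 0.028 with TMM factors. RFC1, which did not pass the FDR, went from -0.036 to 0.113. The plot of all genes shows where the replication genes lie in the cloud.

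**Figure D1:**
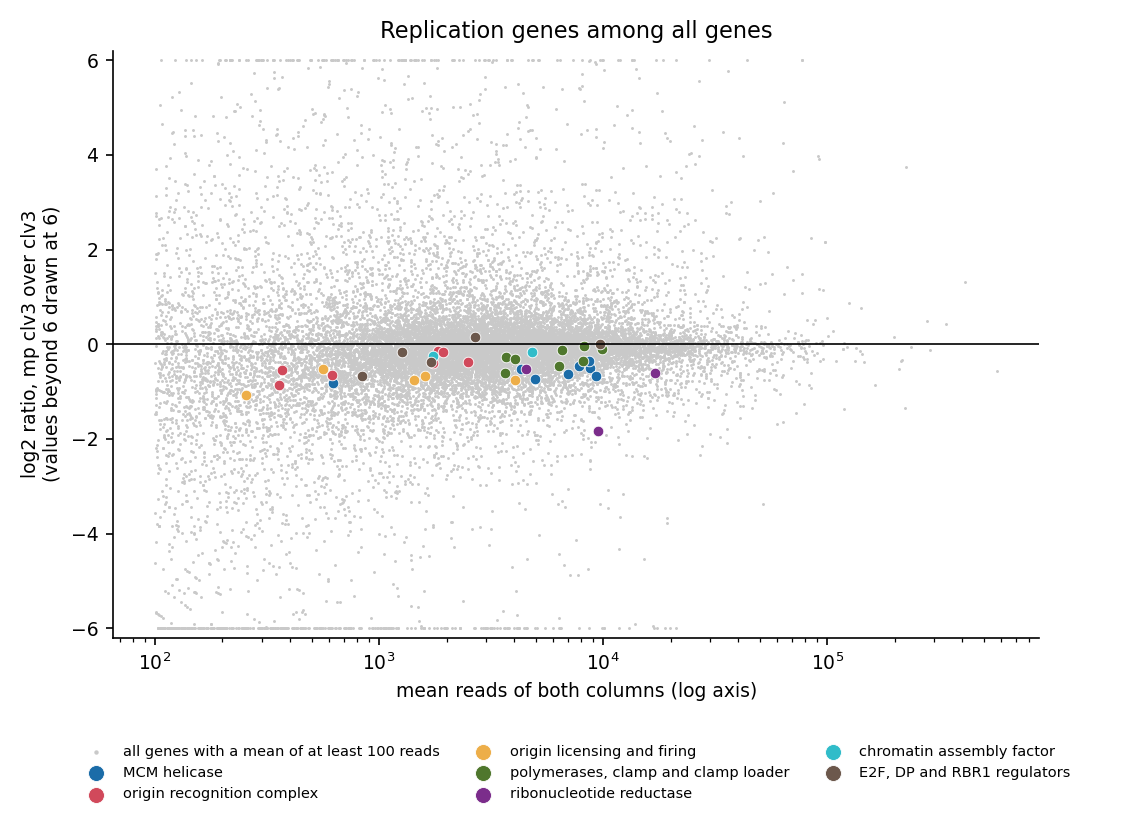
Log2 ratio of mp clv3 over clv3 (vertical axis) against the mean reads of both columns (log axis) for all genes averaging at least 100 reads in grey and the 38 replication genes coloured by role; values beyond 6 are drawn at 6. Most replication genes sit in a narrow band just below 0, with TSO2 at -1.84 apart from the rest and E2FC at 0.15 above the line.

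Levels in clv3 ran from 1.796 RPKM for ORC1A to 109 RPKM for TSO2, and in mp clv3 from 0.987 RPKM for ORC1A to 46.4 RPKM for PCNA2. The order of the levels was largely kept between the genotypes, with a Spearman rho of 0.97 over the 38 genes, given as a description of columns that share the gene models. TSO2 moved from the first place to the third, while RBR1 went from place 12 to 7 and CDT1A from 14 to 21. ORC1A, CDC6B, ORC2, CDC6A and MCM10 took the lowest 5 places in both genotypes. Reads behind a value ranged from 166 (CDC6B in mp clv3) to 20360 (RNR1 in clv3), so the counting intervals are widest for the low licensing and origin genes.

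**Figure D2:**
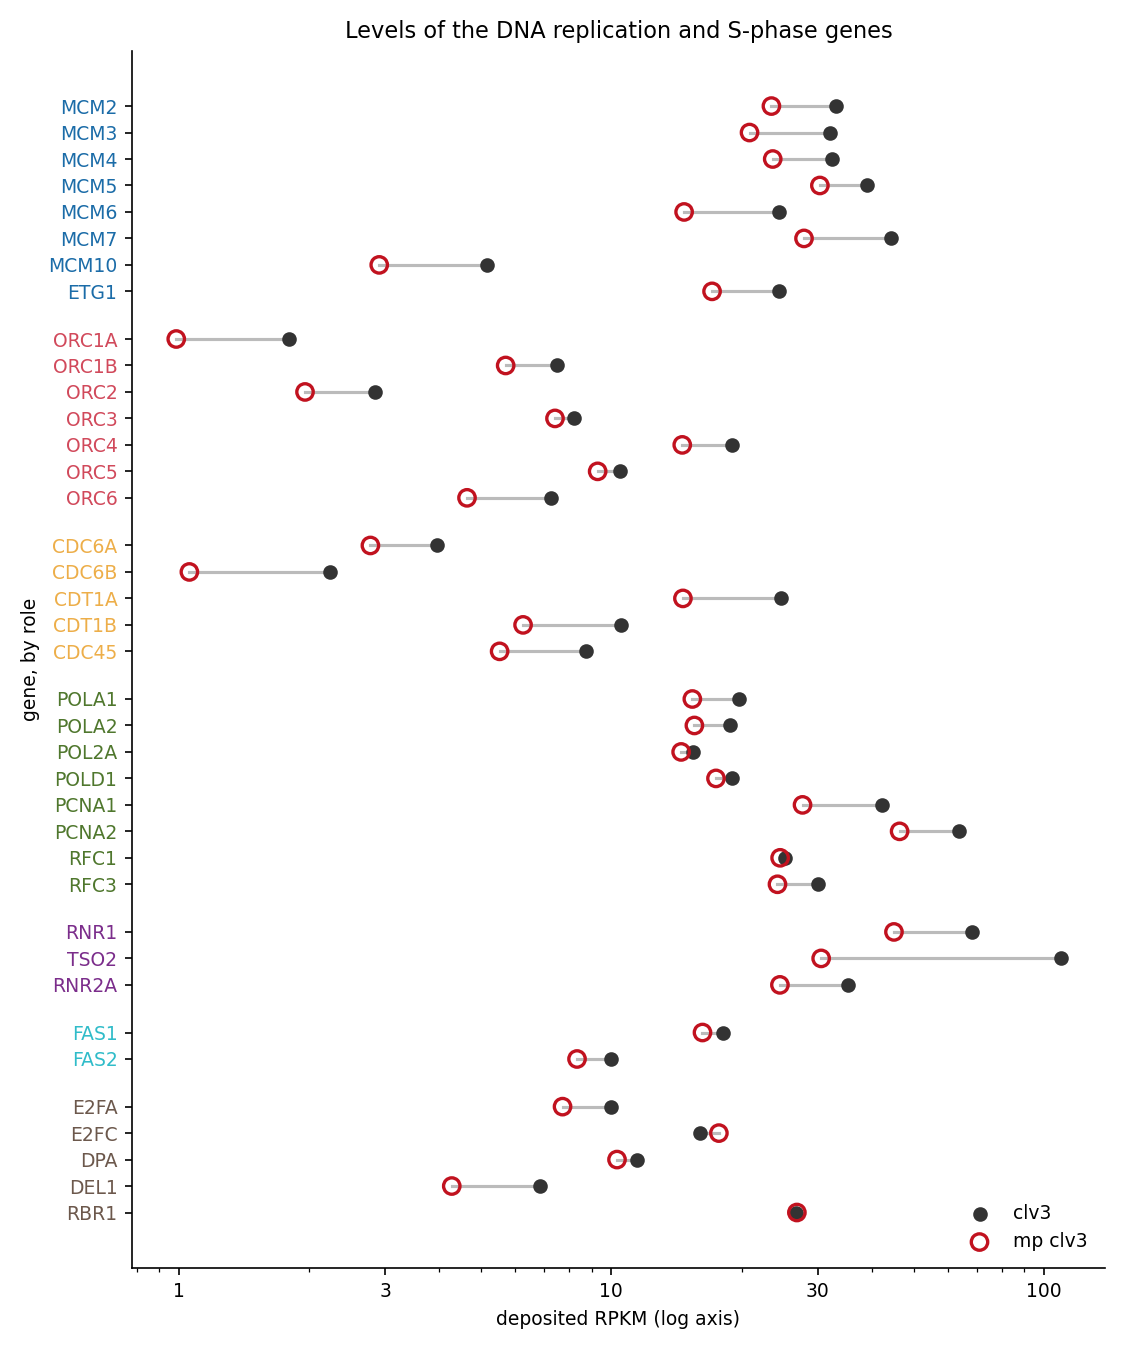
Deposited RPKM (log axis) of the 38 genes in clv3 (filled) and mp clv3 (open), 1 value per genotype, grouped by role. The open circle lies left of the filled one for all genes but E2FC (16.03 and 17.7 RPKM) and RBR1 (26.7 and 26.9 RPKM), and the longest line is that of TSO2 (109 and 30.6 RPKM).

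In the authors' deposited table, all 8 genes of the helicase role (MCM2 to MCM7, MCM10 and ETG1) were lower in mp clv3, beside 46.3% of all genes. Their median log2 ratio was -0.57. MCM2 (AT1G44900) to MCM7 (AT4G02060) form the ring that unwinds DNA, and their levels lay within a narrow range, from 24.4 RPKM (MCM6) to 44.3 RPKM (MCM7) in clv3 and from 14.7 (MCM6) to 30.4 RPKM (MCM5) in mp clv3. MCM6 (AT5G44635) had 6104 reads in clv3 against 3801 in mp clv3, 1.65-fold lower with a 95% counting interval from 1.56 to 1.75. MCM7, also named PROLIFERA, fell from 44.3 to 27.9 RPKM, 1.59-fold (1.52 to 1.66). MCM3 (AT5G46280) stood at 32.1 and 20.9 RPKM, a 1.54-fold lower level (1.46 to 1.61). The other ring subunits were lower by less: MCM2 by 1.41-fold (33.2 to 23.5 RPKM), MCM4 (AT2G16440) by 1.37-fold (32.3 to 23.6 RPKM) and MCM5 (AT2G07690) by 1.29-fold (39.1 to 30.4 RPKM). The intervals of MCM5 (1.23 to 1.34) and MCM6 do not overlap, so these subunits of the ring differed in their fold by more than the counting error. MCM10 (AT2G20980), which helps start the forks, was at a lower level, 5.15 RPKM in clv3 and 2.91 in mp clv3, and 1.77-fold lower (1.502 to 2.09). ETG1 (AT2G40550), an E2F target that binds the MCM complex, stood at 24.4 and 17.1 RPKM, 1.43-fold lower (1.34 to 1.52).

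In the authors' deposited table, all 7 origin recognition genes were lower (ORC3 not so with TMM factors), beside 46.3% of all genes. Their log2 ratios covered a wider range, with a median of -0.39 and running from -0.86 (ORC1A) to -0.14 (ORC3). ORC1 marks origins and exists in 2 copies. ORC1A (AT4G14700) had 456 reads in clv3 against 258 in mp clv3, 1.82-fold lower (1.46 to 2.28), and ORC1B (AT4G12620) had 1958 and 1536 reads, 1.31-fold lower (1.19 to 1.45). ORC6 (AT1G26840) was 1.56-fold lower (7.25 to 4.64 RPKM, interval 1.33 to 1.84) and ORC2 (AT2G37560) 1.45-fold lower (2.84 to 1.96 RPKM, interval 1.17 to 1.799). ORC4 (AT2G01120), the subunit with the highest level, stood at 18.96 and 14.6 RPKM, 1.300-fold lower. ORC3 (8.19 and 7.41 RPKM, 1.105-fold, interval 1.01 to 1.21) and ORC5 (10.5 and 9.299 RPKM, 1.12-fold, interval 1.03 to 1.23) were close to equal in the genotypes. With TMM factors the log2 ratios of ORC3 (AT5G16690) and ORC5 (AT4G29910) were 0.0051 and -0.02, with intervals that span no change, and that of ORC1A was -0.72.

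The 5 licensing and firing genes had the lowest median log2 ratio of the roles, -0.75. All were lower in the authors' deposited table, beside 46.3% of all genes. CDT1 works with CDC6 to load the helicase. CDT1A (AT2G31270) stood at 24.6 RPKM in clv3 against 14.6 RPKM in mp clv3, and CDT1B (AT3G54710) at 10.6 and 6.25 RPKM. Both copies were lower by nearly the same fold, 1.68 (1.58 to 1.79) and 1.69 (1.52 to 1.88). CDC6A (AT2G29680) had 653 and 471 reads, 1.43-fold lower (1.204 to 1.696), and CDC6B (AT1G07270) 341 and 166 reads, 2.12-fold lower (1.62 to 2.79). CDC45 (AT3G25100), which joins the loaded helicase as forks fire, went from 8.75 to 5.52 RPKM, 1.58-fold lower (1.43 to 1.75). With TMM factors the intervals of all 5 genes still lay below no change.

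**Figure D3:**
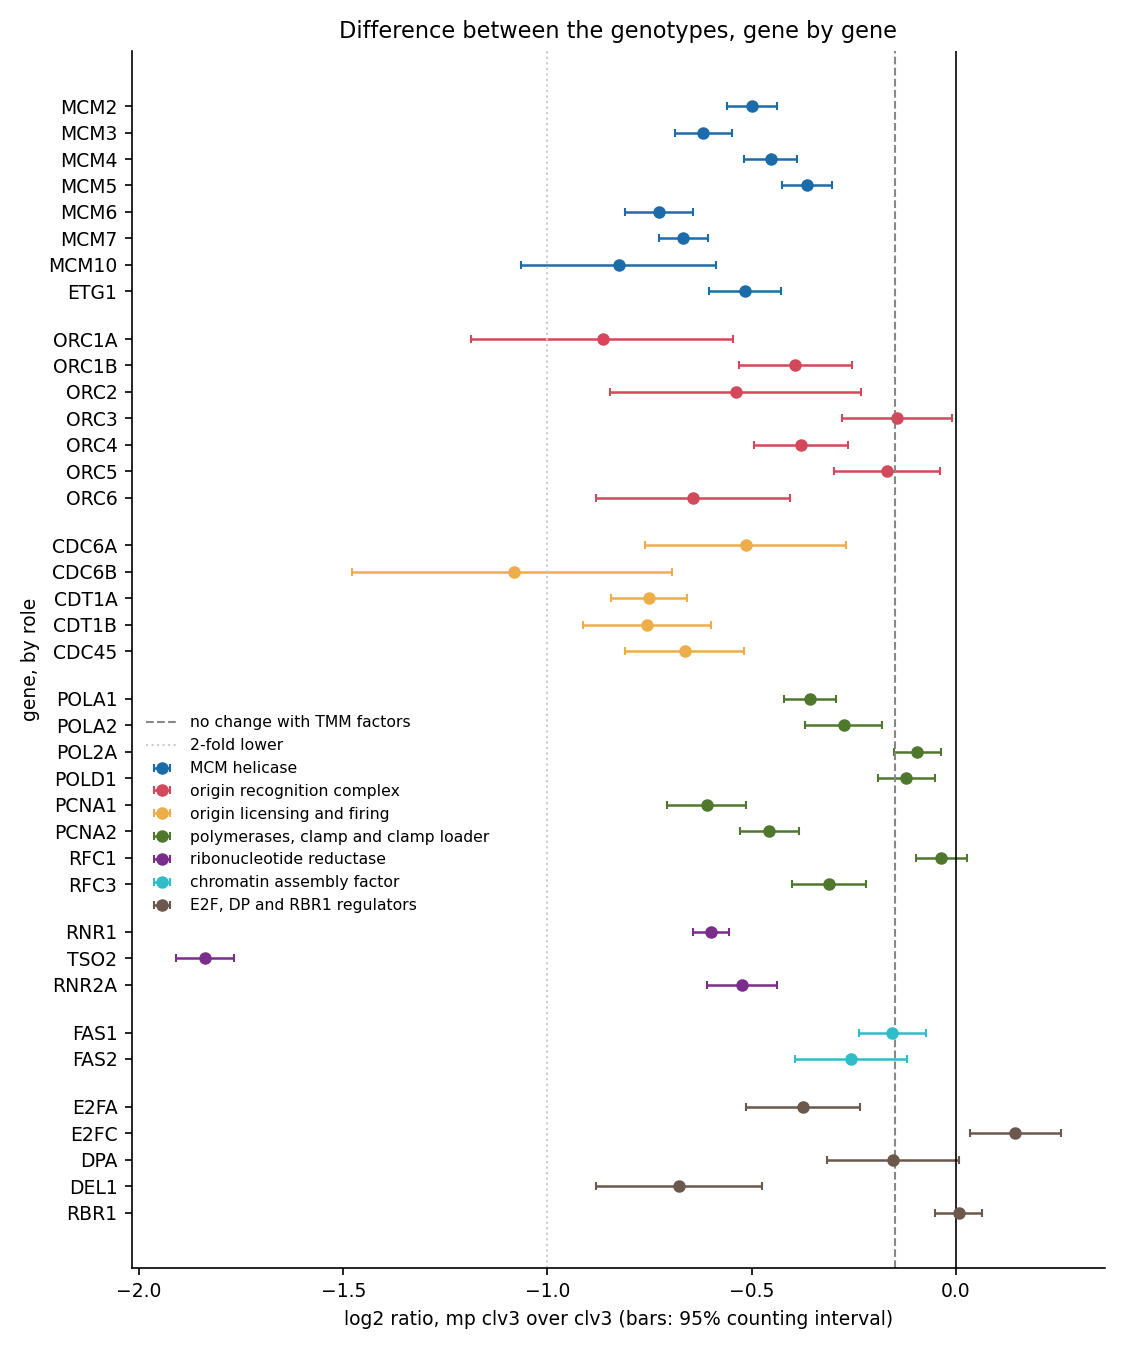
Log2 ratio of mp clv3 over clv3 for each of the 38 genes with its 95% counting interval, coloured by role; the dashed line marks no change with TMM factors and the dotted line a 2-fold lower level. All genes of the licensing and helicase roles lie left of the dashed line with their intervals. ORC3, ORC5, POL2A, POLD1, FAS1, FAS2 and DPA lie across that line, and RFC1, E2FC and RBR1 lie to its right.

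The genes of the copying machinery differed among themselves. The catalytic subunits of the polymerases that extend the strands were near equal in the genotypes, lower by the column totals and slightly higher with TMM factors. POL2A (AT1G08260, TIL1 in the reference), of polymerase epsilon, stood at 15.5 and 14.5 RPKM, 1.07-fold lower (1.03 to 1.11). POLD1 (AT5G63960), of polymerase delta, stood at 18.99 and 17.5 RPKM, 1.09-fold lower (1.04 to 1.14). RFC1 (AT5G22010), the large subunit of the clamp loader, had 8201 and 8241 reads, with an interval that spans 1. Polymerase alpha, which makes the primed starts, was lower by somewhat more, with POLA1 (AT5G67100, ICU2 in the reference) at 19.7 and 15.4 RPKM (1.28-fold) and POLA2 (AT1G67630) at 18.8 and 15.6 RPKM (1.21-fold). RFC3 (AT1G77470), a small subunit of the loader, was 1.24-fold lower (30.04 to 24.2 RPKM). The clamp genes had the largest folds of the 8: PCNA1 (AT1G07370) went from 42.2 to 27.7 RPKM, 1.53-fold (1.43 to 1.63), and PCNA2 (AT2G29570) from 63.7 to 46.4 RPKM, 1.37-fold (1.31 to 1.44). Of the 8 genes of this role, 7 were lower in the authors' deposited table, beside 46.3% of all genes, and the median log2 ratio was -0.29.

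TSO2 (AT3G27060) differed most. It encodes a small subunit of ribonucleotide reductase, the enzyme that turns ribonucleotides into the building blocks of DNA. Its reads numbered 14717 in clv3 and 4239 in mp clv3, or 109 and 30.6 RPKM, so TSO2 was 3.58-fold lower (3.41 to 3.76). Among genes averaging at least 100 reads its log2 ratio lay at percentile 6.5, counted from the lowest. RNR1 (AT2G21790), the large subunit, stood at 68.3 and 45.03 RPKM, 1.52-fold lower (1.47 to 1.56). RNR2A (AT3G23580), the other small subunit measured, stood at 35.3 and 24.5 RPKM, 1.44-fold lower (1.35 to 1.53), close to the median of the replication genes. TSO2 therefore held 75.6% of the summed RPKM of these small subunits in clv3 and 55.5% in mp clv3. The fold of TSO2 was 2.49 times that of RNR2A, with an exact interval from 2.302 to 2.69 from the conditional odds ratio on read pairs. Without TSO2, the median log2 ratio of the remaining 37 genes was -0.46.

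Other gene copies were compared in the same way. In clv3, ORC1B stood 4.17 times above ORC1A in RPKM and in mp clv3 5.78 times, and the ratio of their folds was 1.39 (1.09 to 1.77). CDC6A held 63.9% of the summed RPKM of the CDC6 genes in clv3 and 72.4% in mp clv3. For CDT1 the share of CDT1A was 70.01% and 70.1%, and the ratio of the folds had an interval from 0.877 to 1.13. PCNA1 held 39.9% and 37.4% of the PCNA level. Of these pairs, CDT1 alone had an interval that spans equal folds. The longest stretch shared by the spliced transcripts was 71 bases for ORC1, 54 for CDC6, 41 for PCNA, 13 for TSO2 and RNR2A and 11 for CDT1. How reads that match several places were counted is not stated.

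**Figure D4:**
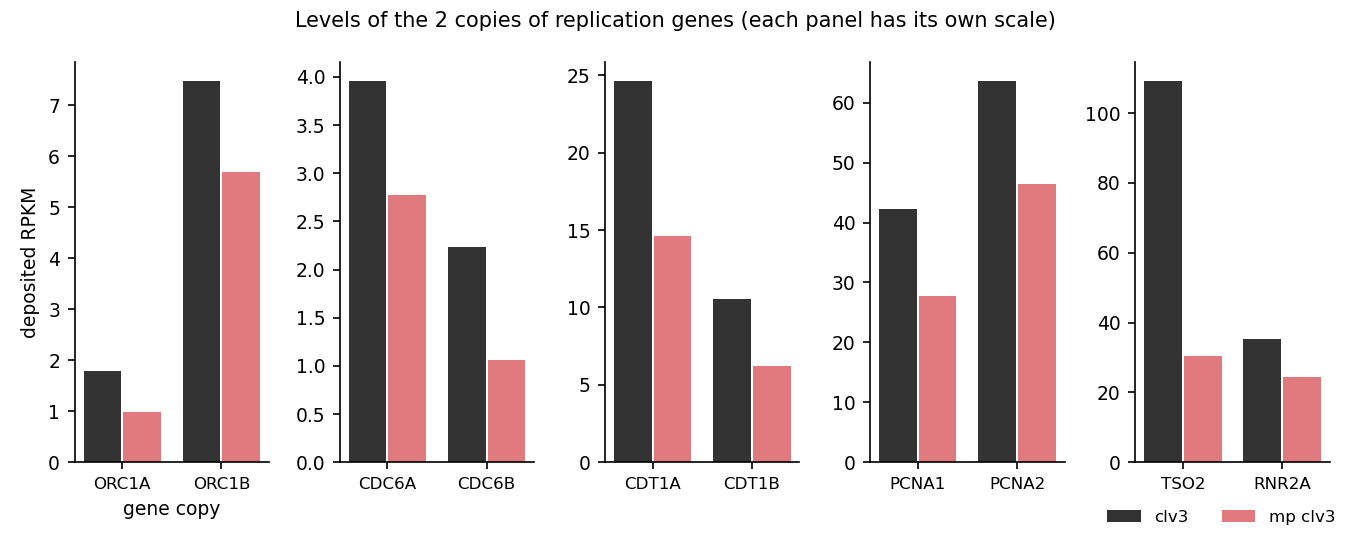
Deposited RPKM of the 2 copies of ORC1, CDC6, CDT1 and PCNA and of the small ribonucleotide reductase subunits TSO2 and RNR2A, with clv3 in dark and mp clv3 in light bars 1 value per bar and a scale of its own in each panel. All bars are lower in mp clv3, and TSO2 drops from 109 to 30.6 RPKM while RNR2A goes from 35.3 to 24.5 RPKM.

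The chromatin assembly genes FAS1 (AT1G65470) and FAS2 (AT5G64630), named for the broad, fasciated stems of their mutants, differed little. FAS1 stood at 18.1 RPKM in clv3 and 16.2 in mp clv3, 1.11-fold lower (1.05 to 1.18), and FAS2 at 9.96 and 8.33 RPKM, 1.196-fold lower (1.09 to 1.31). Both passed the FDR in the authors' deposited table, and with TMM factors neither interval excluded no change.

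The regulators were mixed, with E2FA (AT2G36010), DPA (AT5G02470) and DEL1 (AT3G48160) lower and E2FC (AT1G47870) higher in the authors' deposited table. RBR1 (AT3G12280) had 9550 reads in clv3 against 9885 in mp clv3, 26.7 and 26.9 RPKM, a ratio of mp clv3 over clv3 of 1.005 with an interval from 0.965 to 1.05. E2FC, known mainly as a repressor of division genes, was higher in mp clv3, at 16.03 and 17.7 RPKM, a ratio of 1.11 (1.02 to 1.19). E2FA, an activator, was 1.297-fold lower (10.00 to 7.71 RPKM, interval 1.18 to 1.43), so E2FC stood 1.603 times above E2FA in RPKM in clv3 and 2.299 times in mp clv3. DPA, a dimer partner of E2F proteins, was listed as lower in the authors' deposited table, yet its counting interval ran from 0.995 to 1.24-fold (11.5 and 10.3 RPKM). DEL1, an E2F-like repressor that restrains endoreduplication, was 1.599-fold lower (1.39 to 1.84), from 6.84 to 4.28 RPKM, the largest fold of the 5 regulators measured.

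The 16 genes with a match to the E2F spellings had a median log2 ratio of -0.42, from -1.08 (CDC6B) to 0.0069 (RBR1), and the 22 measured genes without one had a median of -0.51, from -1.84 (TSO2) to 0.15 (E2FC). The ranges of both sets overlap over most of their length. Over all genes averaging at least 100 reads, the median was -0.29 for the 372 with a match, the replication genes included, and -0.12 for the 18256 without.

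Other genes of the pathway, listed by role with earlier results of these data known, were mostly lower by small amounts. In the authors' deposited table, 43 of 50 measured (86.0%) were lower, beside 46.3% of all genes, and 5 were higher. At least 1.5-fold lower were 11 (22.0%), beside 30.3% of all genes. Over all genes averaging at least 100 reads the share was 24.1%, and from 1000 reads 17.3%, so this comparison depends on read depth. Their median log2 ratio was -0.35, and with TMM factors 30 of the 50 intervals lay below no change and 7 above it, beside 33.5% and 31.8% of all genes. All 9 replication protein A genes, whose products coat single-stranded DNA, were lower in the authors' deposited table, led by RPA1B (RPA70B in the reference) at 15.01 and 6.62 RPKM (2.27-fold, 2.06 to 2.498) and RPA1E at 3.72 and 2.01 RPKM (1.85-fold). All 5 measured nucleotide supply genes were lower there too, and the thymidine kinase gene TK1A (25.2 to 11.7 RPKM, 2.16-fold, 1.99 to 2.34) and the dUTPase gene DUT1 (36.01 to 16.9 RPKM, 2.13-fold, 1.94 to 2.35) were at least 2-fold lower, as was TSO2. These genes act beside ribonucleotide reductase in making or guarding the deoxyribonucleotide pool.

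LIG1, the ligase that joins lagging-strand fragments, was 1.61-fold lower (30.6 to 19.00 RPKM), and RFC5, of the clamp loader, 1.26-fold lower. For the counts that follow, 46.3% of all genes were lower and 26.4% higher by FDR in the authors' deposited table. The GINS genes, whose complex joins CDC45 at the helicase, were split there, with 2 lower, 2 higher and 1 past neither side. SLD5 (1.31-fold lower) and PSF2 (1.21-fold lower) differed most. Of 7 primase and polymerase subunit genes, 6 were lower and 1 higher there. DPB2, of polymerase epsilon, was 1.34-fold lower. POL2B (TIL2 in the reference), the second copy of the epsilon catalytic subunit, had 229 reads in clv3 against 14 in mp clv3, 16.8-fold lower (7.92 to 42.9), and stood at 0.356 RPKM in clv3, far under POL2A. Of the other MCM and E2F family genes, 5 of 6 were lower in the authors' deposited table, by at most 1.29-fold (DEL2), with MCM9 1.25-fold lower. Of 13 histone H3.1 and H4 genes, which package newly made DNA, 12 were lower and 1 was higher in the deposited table of the authors, with AT5G59970 1.73-fold and AT3G46320 1.57-fold lower. These histones are encoded by several gene copies, and how alike their transcripts are was not measured. How reads that match several places were counted is not stated, so their separate values are uncertain.

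Genes of mitosis and markers of other tissues were followed beside the replication genes. In the authors' deposited table, 17 of 18 mitosis genes (94.4%) were lower, beside 46.3% of all genes, and 1 was higher. By the column totals 10 of them (55.6%) were at least 1.5-fold lower, beside 30.3% of all genes. With TMM factors 5 (27.8%) were, beside 26.6% of all genes. From means of 100 and 1000 reads, the share of all genes with TMM factors was 19.2% and 12.7%. The median log2 ratio of the mitosis genes was -0.61, beside -0.48 for the replication genes. CYCB2;1 was 2.58-fold and CYCB1;2 2.31-fold lower, both encoding cyclins that act at entry into mitosis. The difference between the lists was not tested. Of the meiosis markers, DMC1 was 3.87-fold lower (2565 and 683 reads) and ASY1 3.57-fold lower (1053 and 304 reads). Of the shoot meristem markers, WUS (5.69 and 21.8 RPKM, a ratio of 3.83), STM and CLV1 were over 1.5-fold higher in mp clv3, LFY was higher by a ratio of 1.12, and KNAT1 (3.77-fold) and ATML1 (1.81-fold) were lower, all 6 by FDR in the authors' deposited table.

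**Figure D5:**
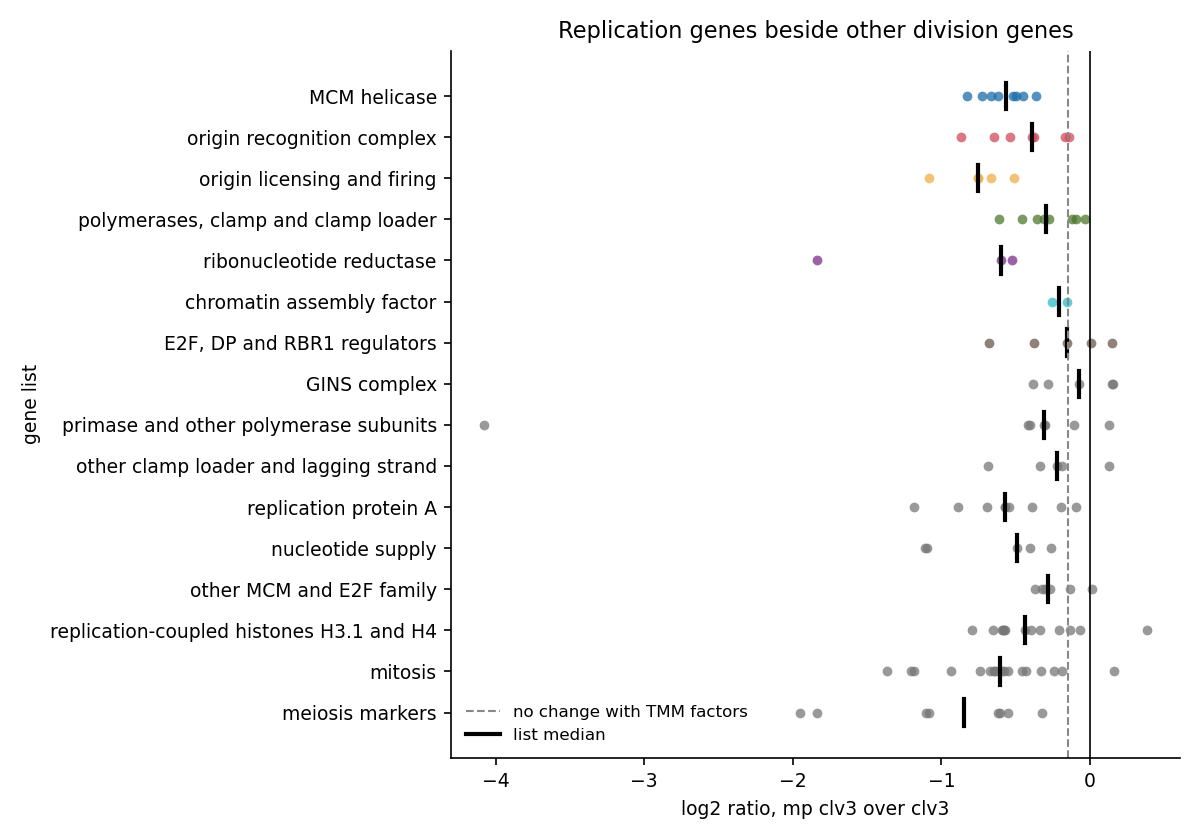
Log2 ratio of mp clv3 over clv3 for each measured gene of the replication roles (coloured) and of other replication, mitosis and meiosis lists (grey), with list medians as black bars and no change with TMM factors as a dashed line. List medians run from -0.07 (GINS complex) to -0.85 (meiosis markers), and TSO2 at -1.84 and POL2B at -4.07 lie apart from their lists.

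Depth was similar, at 100328819 reads in clv3 and 103347441 in mp clv3, and 24172 and 22616 genes had reads. As a check of the labels, MP had 25336 reads in clv3 against 5063 in mp clv3, 5.15-fold lower (4.94 to 5.38), and CLV3, mutant in both genotypes by their labels, had 110 and 1278 reads, 11.3 times higher in mp clv3 (8.56 to 15.1). In the RefSeq annotation, 16 of the 38 genes overlap another gene, and the use of strand in counting is not stated. With a single neighbour the overlap covers 31.9% of ORC1A, 15.1% of PCNA2, 14.0% of POLA1 and 10.8% of DEL1, and at most 9.73% (POL2A) of the other 12. These shares are of the whole gene span, introns included. The neighbour of PCNA2 had 3602 and 2839 reads, that of POLA1 3063 and 548, and that of DEL1 8830 and 10052, in clv3 and mp clv3. That neighbour of ORC1A has no row among the genes used. Another, AT4G14710, overlaps 3.63% of ORC1A and had 5591 and 6299 reads. The values of these 4 genes are uncertain for that reason.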

How the data were processed

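Purified mRNA of 2 clv3 and 2 mp clv3 samples went into strand-specific libraries that were read from both ends, per the labels' protocols. The submitters' processing notes name CASAVA 1.7, BWA and the build TAIR10. The authors deposited 1 column of read counts per genotype, entered here as estimated counts since 0 is written as 0.5, which was read as 0. The sources used here do not give how libraries were combined, the use of strand or the test behind the FDR. The deposited RPKM are the counts scaled to model length and column total, per the file headers, and the deposited log2 ratio is that of mp clv3 over clv3. The FDR (an adjusted p-value) is the authors' own, per the file headers. Of 27323 rows, 1 with other content was left out.

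The planned test across libraries was not possible with 1 column per genotype. Folds are ratios of reads scaled by the column totals, with exact Clopper-Pearson intervals at 95% on read pairs, since deposited counts from 1 to 9 were even in 83.3% (clv3) and 82.5% (mp clv3) of cases, as they would be were both mates counted. Intervals cover counting error only and were tested on simulated counts. TMM factors came from edgeR 4.0.16. The members and all lists were chosen with earlier results of these data known. All 39 members are named, and of each other list the 2 largest changes among genes with at least 100 reads in the higher column. STM, CLV1, ATML1, LFY, DYT1 and MSI1 were named after their values were seen. Sequences, gene starts and reference symbols are from RefSeq on TAIR10.1. Alternatives were TMM and median-of-ratios scaling, minimum means of 100 and 1000 reads, a pseudocount of 1 RPKM and intervals in place of the FDR. Python 3.11.15, SciPy 1.17.1 and Biopython 1.88 were used.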

Additional observations from a re-analysis of the deposited data

How the results depend on the processing

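No paired analysis was possible because the table gives 1 unnumbered column per genotype, and for the same reason no library could be left out. With 1 column per genotype, none of these settings measures the spread between plants. The minimum mean of 1000 reads and the intervals in place of the FDR were chosen after seeing the data. The 14 replication genes at least 1.5-fold lower were 6 with TMM factors (15.8%, beside 26.6% of all genes) and 6 with median-of-ratios size factors. From a mean of 1000 reads they were 9 (29.0%, beside 17.3% of all such genes). The 2 at least 2-fold lower were 1 with each of these settings and with a pseudocount of 1 RPKM. The median log2 ratio of the 38 genes, -0.48, was -0.33 with TMM factors, -0.33 with median-of-ratios factors and -0.38 from a mean of 1000 reads. Of the 35 lower genes by FDR, 14 were also at least 1.5-fold lower, and of the 1 higher gene 0; with TMM factors 3 intervals lay above no change. Of the genes with an FDR under 0.05, ORC3, POL2A and POLD1 turned from lower to 0.0051, 0.0546 and 0.0277 on the log2 scale with TMM factors. With median-of-ratios factors they stood at 0.0006, 0.0501 and 0.0232, since both settings move all ratios up. RFC1, which did not pass that FDR, turned from -0.0358 to 0.1132 and 0.1087. The other 33 genes with an FDR under 0.05 did not change direction under any of the 3 scaling and pseudocount settings.

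Over all genes, the median log2 ratio of -0.11 became 0.04 with TMM factors and 0.0355 with median-of-ratios factors. At least 1.5-fold lower were 7280 genes with TMM factors and 7303 with median-of-ratios factors, beside 8291 by the column totals. At least 2-fold lower were 5475 and 5486, beside 6078. The 8291 genes at least 1.5-fold lower were 4531 from a mean of 100 reads, 4562 with the pseudocount and 2428 with at least 1000 reads, and the 4087 higher were 1820 with at least 1000 reads. The 6078 at least 2-fold lower were 2584, 2237 and 1099 under these settings, and the 2900 higher were 1868, 1692 and 1137. Genes called by FDR numbered 12651 lower and 7206 higher, of which 7120 and 3549 were at least 1.5-fold apart, and 7265 of the lower ones had at least 1000 reads. Fewer genes are tested under the read minimums, and a pseudocount shrinks low genes by its construction.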
